A study of Oncorhynchus tshawytscha with 15 samples.

Results

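Of the 183740 contigs in the deposited table of the gill transcriptome of juvenile Chinook salmon, 263 (0.143%) rose at 25° while their means at 18° and 21° stayed under a common bound. A contig is a stretch of transcript sequence assembled from overlapping reads without a reference genome, so that a gene may be represented by a single contig or by several. The members were chosen by their measured level in CPM, the reads on a contig per 1000000 reads counted in the library. Each had a mean of at least 5 CPM at 25°, a mean at 18° and at 21° below 1.5 times the mean of the 12° and 15° libraries, and a lowest value at 25° above 4 times the highest value in any of the other 12 libraries. The 4-fold gap alone was met by 0.569% of all contigs. The limit of 300 contigs set for the group was not reached.

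The fish were fall-run Chinook salmon from a California hatchery, 5 months old and reared at 12°. Fish were exposed for 3 hr to 15°, 18°, 21°, or 25° and returned to 12° for 1 hr before the gill was collected, whereas the control fish were handled in the same way and remained at 12°. Each temperature had 3 libraries, and each library was made from the pooled gill RNA of 11 fish, so that 33 fish stood behind a temperature and 165 behind all 15 libraries. The replicates were run on consecutive days. The libraries are called pools 1 to 3 here, after the replicate number in their labels. The study states that part of the fish in the warmest bath lost responsiveness or died there and were taken for sampling promptly, so that the fish of these pools did not all complete the same exposure and recovery.

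The gill of a fish exchanges gases, ions, and nitrogenous waste with the water through a thin epithelium, and it is exposed to a change in water temperature directly. In vertebrate cells, moderate heat activates the transcription of chaperones, the proteins that refold or hold damaged proteins, and the degradation of proteins through ubiquitin. Heat close to the limit of survival is known to recruit further classes of genes, among them immediate early transcription factors, inflammatory mediators, and regulators of cell death. The deposited table names contigs by number only, so none of the 263 contigs is assigned to a gene or to any of these classes here, and the gill label was not checked against marker genes.

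The reads counted on all contigs summed to 58654252 to 90869450 per library, of which 97.6% to 97.8% aligned to a single contig. At every temperature these sums exceed the number of sequenced reads that the study gives, for a reason not given in the sources used here, so they are not the sequencing depth, and intervals computed from counts may be too narrow. The leading component of the deviations of the libraries from their group means took up 55.1% of the variance within groups over 77975 contigs, and it separated 8 libraries from 7 without following the replicate numbers. At 25°, pool 1 lay on one side of it and pools 2 and 3 on the other. The deviations of 8 of the 263 members correlated above 0.7 with this component, or 3.04%, and those of 2 below -0.7, against 14.8% and 21.5% of the 77975 contigs. The component was derived from these 77975 contigs, so the difference does not show that the members were less affected by it. The labels give no batch, and the origin of the component was not tested. In 12° pool 1, 183630 contigs had at least 1 read, against 164580 to 177769 in the other libraries, and without that pool the rule gave 262 contigs, of which 252 were among the 263.

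The median level of the members was nearly the same in the 12 cooler libraries and about an order of magnitude higher at 25°. Their median was 1.14, 1.16, and 1.16 CPM in the 3 control pools and 17.6, 15.5, and 11.0 CPM in pools 1, 2, and 3 at 25°. At 15° the medians were 1.1, 1.14, and 1.24 CPM, at 18° they were 1.23, 1.23, and 1.21, and at 21° they were 1.27, 1.44, and 1.39. Every pool at 25° thus lay far above the other libraries, and the lowest member in any pool at 25° was at 1.85 CPM. In the order of all contigs by CPM, the median member stood at a percentile of 59.2 to 62.1 in the control pools and of 90.6 to 94.5 at 25°. Since the rule chose the contigs for this pattern, these levels are a description and no test is attached to them. In a whole-tissue sample, more cells of a kind that transcribes a contig and more RNA per cell cannot be told apart.

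**Figure D1:**
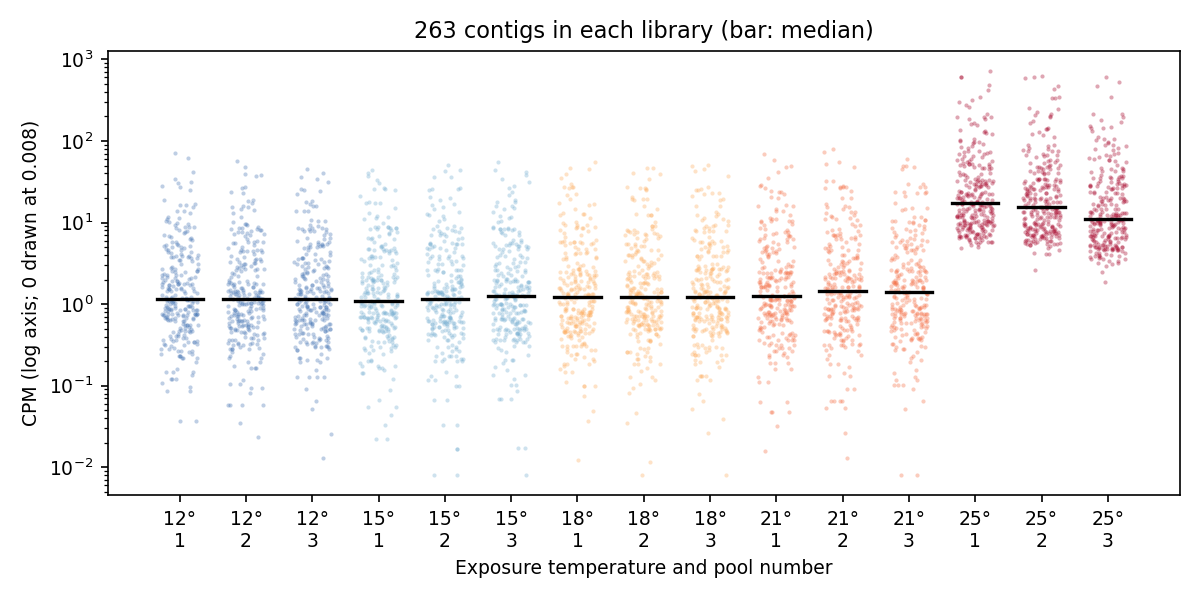
CPM of the 263 contigs (points, log axis, with 0 reads drawn at 0.008) in each of the 15 libraries, grouped by exposure temperature with the pool number below it, and the median of the contigs as a bar. The medians of the 12 libraries from 12° to 21° lay between 1.1 and 1.44 CPM and those of the 3 pools at 25° between 11.0 and 17.6 CPM.

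The 263 contigs together took up 0.0951% ± 0.0040 of the reads of a library at 12° (SD, n = 3 pools) and 1.09% ± 0.21 at 25° (SD, n = 3), a ratio of 11.5. Their share was 0.0949% ± 0.0033 at 15° (SD, n = 3), 0.101% ± 0.0025 at 18° (SD, n = 3), and 0.118% ± 0.0063 at 21° (SD, n = 3). In the single pools at 25° the share was 1.248%, 1.17%, and 0.857% for pools 1, 2, and 3, so that pool 3 held the smallest. The 10 members with the highest CPM at 25° accounted for part of this share, and without them it was 0.0636% ± 0.0012 at 12° (SD, n = 3) and 0.703% ± 0.138 at 25° (SD, n = 3).

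The ratio of the mean at 25° to the mean of the other 12 libraries had a median of 11.1 over the 263 contigs, with quartiles of 8.16 and 17.0 and a range of 5.41 to 382. It was at least 10 in 153 contigs, at least 20 in 46, at least 50 in 14, and at least 100 in 7. The largest ratios were found among contigs that were scarcely detected at the lower temperatures. The 49 contigs with a mean below 0.5 CPM in the other 12 libraries had a median ratio of 26.8, whereas the 50 contigs with a mean of at least 5 CPM there had a median ratio of 8.68. The minimum of 5 CPM at 25° by itself requires a ratio of at least 10 from any contig below 0.5 CPM, so this order follows in part from the rule.

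**Figure D2:**
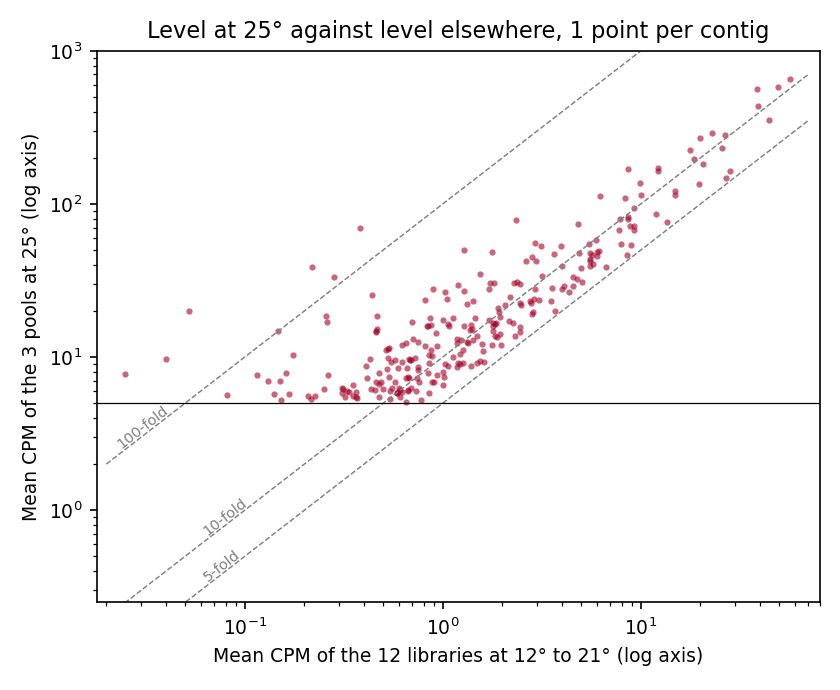
Mean CPM of the 3 pools at 25° (vertical, log axis) against the mean CPM of the 12 libraries from 12° to 21° (horizontal, log axis), with 1 point for each of the 263 contigs. The horizontal line marks the minimum of 5 CPM and the dashed lines ratios of 5, 10, and 100. The 7 contigs with a ratio of at least 100 lie on or above the uppermost dashed line, and all of them were low in the other 12 libraries.

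The contig with the largest ratio was contig_1817553, which is 242 bp long. It had 0.0364, 0.0580, and 0.0642 CPM in the 3 control pools and 22.4, 25.2, and 12.4 CPM at 25°, and none of the other 12 libraries exceeded 0.131 CPM. The control values rest on 3, 5, and 5 reads, and no read was found in pool 3 at 21°. Over the 49 reads of the other 12 libraries the pooled ratio of 375 had an exact 95% interval of 283 to 508, which covers counting error only. The contig was chosen for this ratio, which the interval does not allow for, so nothing is inferred from it. In the fit against 12° its log2 fold change at 25° was 8.88 (standard error 0.40). That error was derived from the F statistic of the test and may be too small with so few control reads.

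The following contigs in this order, contig_1553979 (388 bp) and contig_1449946 (386 bp), were likewise almost absent below 25°. contig_1553979 had 0.0364, 0.0232, and 0.0514 CPM at 12° and 9.49, 8.47, and 5.25 CPM at 25°. contig_1449946 had 0.0850, 0.0580, and 0.128 CPM at 12° and 16.8, 8.09, and 4.18 CPM at 25°. In both, pool 1 at 25° was the highest and pool 3 the lowest. At 15° contig_1449946 had at most 2 reads in a library, and edgeR gave a log2 fold change against 12° of -2.58 with a standard error of 0.92 (unadjusted p = 0.0207, adjusted p = 1).

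Among the 10 contigs with the largest ratios, contig_10094 (2183 bp) was the longest and had the highest CPM at 25°, a measure that is not corrected for length. It had 0.194, 0.452, and 0.745 CPM in the control pools, from 16, 39, and 58 reads, and 102, 69.7, and 35.9 CPM at 25°. contig_1449656 (402 bp) had 0.146, 0.244, and 0.347 CPM at 12° and 52.2, 33.7, and 29.8 CPM at 25°. contig_73417 (333 bp) had 0.158, 0.162, and 0.154 CPM at 12° and 49.0, 32.7, and 18.6 CPM at 25°. All 3 were highest in pool 1 and lowest in pool 3 at 25°. The remaining 4 of the 10, contig_71470, contig_1794225, contig_1802893, and contig_1451709, had ratios of 66.4 to 100.1 and lengths of 157 to 1129 bp. Of these, contig_1802893 varied little between the pools at 25°, with 5.83, 5.93, and 5.11 CPM.

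The members with the highest CPM at 25°, which is not corrected for length, had reads at every temperature and smaller ratios than the 10 contigs above. contig_61597 (1290 bp) had 70.4, 57.0, and 45.6 CPM in the control pools and 722, 622, and 608 CPM at 25°. contig_45986 (1219 bp) had 61.3, 48.5, and 40.4 CPM at 12° and 612, 590, and 533 CPM at 25°. In the other 9 libraries the first ranged from 43.7 to 78.8 CPM and the second from 37.4 to 73.0 CPM, with the highest value of both in pool 2 at 21°. Their ratios to the other 12 libraries were 11.5 and 11.7. All reads of both contigs aligned to a single contig, so that no read was shared with another contig.

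contig_74912, of the second of the 2 sets of contig names described below, is 1858 bp long and had 34.6, 38.2, and 31.1 CPM at 12° and 610, 612, and 475 CPM at 25°. contig_473978 (1515 bp) had 31.5, 39.2, and 34.1 CPM at 12° and 486, 470, and 344 CPM at 25°. contig_479496 (5497 bp) had 41.5, 37.4, and 35.9 CPM at 12° and 423, 431, and 212 CPM at 25°. In these 3 contigs pools 1 and 2 at 25° lay within a few percent of each other, and pool 3 lay below both. In contig_479496 the pool with the lowest value at 25° was 4.10 times the highest of the other 12 libraries, close to the limit of the rule.

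Levels of different contigs can be set against each other only after division by length, for which the deposited RPKM (reads per kilobase of contig per 1000000 reads) was used. On this scale the median member was at 1.39 RPKM at 12° and at 18.5 RPKM at 25°. The members with the highest level at 25° were contig_61597 with 504 ± 48 RPKM (SD, n = 3), contig_73782 with 487 ± 163 (SD, n = 3), contig_45986 with 475 ± 33 (SD, n = 3), and contig_73865 with 470 ± 168 (SD, n = 3). These 4 levels differed by less than the spread between the pools of contig_73782 and contig_73865, so their order is not resolved. At 12° the same contigs were at 44.7, 27.3, 41.1, and 28.2 RPKM in the order given.

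At 15° the rule set no bound of its own, but the 15° libraries entered both the baseline and the 4-fold gap. The libraries at 18° and 21° entered the rule as well, and the counts and p-values at these 3 temperatures are therefore given as a description of the members. The test covered 155951 contigs, those that reached 10 reads in 3 or more libraries. A contig was called if its fold change exceeded 2 and its p-value, adjusted over all tested contigs by the Benjamini-Hochberg method, lay under 0.01 in the quasi-likelihood test of edgeR. At 15° against 12°, 0.0% of the tested contigs were upregulated and 0.0% downregulated. All 263 members were tested, and 0 were upregulated and 0 downregulated. DESeq2 also gave 0 members in either direction, beside 0.0% upregulated and 0.00128% downregulated over all tested contigs. At an unadjusted p-value below 0.05, 1 member was higher (0.380%) and 4 were lower (1.52%), against 1.23% and 1.22% of all tested contigs. In 16 members every library at 15° lay above every control library, and in 10 every one lay below, beside 5.05% and 3.66% of all tested contigs. Their median log2 fold change was -0.03, against -0.01 over all tested contigs, and 121 lay above 0 and 142 below. The median standard error for a single contig was 0.26 on the log2 scale, which is not the limit of detection. The fitted change at 15° exceeded 2-fold upward in 1 member and downward in 4, none of which was called. Changes under 2-fold could not be called by the rule for calls. Larger ones could be missed at this depth and number of pools.

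At 18° the members' mean was held below 1.5 times the baseline by the rule. None of the members (0 of 263) was upregulated or downregulated at 18° by edgeR, beside 0.0269% upregulated and 0.0% downregulated over all tested contigs. DESeq2 likewise called 0 members, beside 0.196% upregulated and 0.0814% downregulated. At an unadjusted p-value below 0.05, 25 members were higher (9.51%) and 9 lower (3.42%) at 18° in the edgeR fit, beside 5.75% and 4.92% of all tested contigs. The median log2 fold change was 0.06. In 35 members (13.3%) every library at 18° lay above every control library, and in 14 (5.32%) every one lay below. The shares were 9.19% and 8.48% of all tested contigs, and 17.4% and 6.50% of the contigs with the same minimum mean at 25°.

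At 21° most members had a mean slightly above that of the controls. The ratio of the mean at 21° to the baseline of 12° and 15° had a median of 1.21, with a lowest value of 0.272 and a highest of 1.499, just under the bound. The mean at 21° exceeded that at 12° in 206 of the 263 contigs (78.3%), beside 42.6% of all tested contigs and 53.7% of those with the same minimum mean at 25°. In 74 (28.1%) every library at 21° lay above every control library, and in 9 (3.42%) every one lay below. The shares were 11.5% above and 11.6% below over all tested contigs. Among the contigs with the same minimum mean at 25° they were 23.8% and 9.80%. The highest of the 12 cooler libraries was one at 21° for 162 of the members (61.6%), with 73 in pool 2 alone. This count was not made for other contigs. Again 0 members were upregulated and 0 downregulated by edgeR, beside 0.53% upregulated and 0.0558% downregulated contigs over all tested. DESeq2 also called 0 members, beside 1.12% upregulated and 0.4% downregulated. At an unadjusted p-value below 0.05 in the edgeR fit, 59 were higher (22.4%) and 3 lower (1.14%), beside 9.47% and 6.58% of all tested contigs. The median log2 fold change was 0.31. The bound was set against the combined 12° and 15° libraries, and against 12° alone the fitted change at 21° exceeded 2-fold upward in 3 members and downward in 2, none of which passed the test. The largest upward was contig_73417, with 0.413, 0.460, and 0.284 CPM at 21° and the 12° values given above, for which edgeR gave a log2 fold change of 1.33 with a standard error of 0.40 (adjusted p = 0.136). Its mean at 21° was 1.490 times the baseline, just under the bound. At 15° it had 0.176, 0.645, and 0.256 CPM, the second from 39 reads, so its place inside the bound rests in part on pool 2 at 15°.

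At 21°, contig_57688 (4808 bp) had the smallest adjusted p-value of the members (0.0120 by edgeR). With a log2 fold change of 0.66 and a standard error of 0.10, it stayed under the 2-fold limit, and its adjusted p-value also missed the limit of 0.01. It had 18.7, 18.3, and 18.1 CPM at 12°, 20.9, 20.2, and 21.7 CPM at 15°, 22.3, 25.4, and 23.0 CPM at 18°, and 28.4, 28.3, and 27.5 CPM at 21°. The 4 groups did not overlap and stood in the order of temperature, and at 25° the contig had 347, 345, and 180 CPM. This contig is shown for its p-value at 21°, and such an order was not counted over the other members or all contigs. Some members had lower values at 21° than at 12°. contig_471750 (1119 bp) had 0.267, 0.255, and 0.218 CPM at 12°, 0.0476, 0.0657, and 0.0646 CPM at 21°, and 8.71, 8.11, and 4.21 CPM at 25°. Its log2 fold change at 21°, the lowest of the members, was -1.97 with a standard error of 0.51 (edgeR, unadjusted p = 0.00398, adjusted p = 0.0915). With an adjusted p-value below 0.10 and the same limit on the fold, it was the 1 member downregulated at 21°, and 0 were upregulated, beside 0.675% and 1.43% of all tested contigs. The bound of the rule kept most members under that limit. Without a limit on the fold, 21 members were higher and 1 lower at an adjusted p-value below 0.10 in the edgeR fit. That share was not computed over all tested contigs, so the count is not read as a result about the members. The 21 include the 6 contigs joined by pairs of near-constant ratio described below, which may not be separate transcripts. The level of contig_22585 (809 bp) was 6.23, 6.26, and 5.77 CPM at 12°, 4.07, 3.99, and 4.58 CPM at 18°, and 4.36, 4.45, and 2.83 CPM at 21°, below all controls in all 6 of these libraries. At 25° contig_22585 stood at 91.4, 66.7, and 62.3 CPM. It was picked from the members with the smallest p-values at 18°, where its adjusted p was 0.199 in the edgeR fit.

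At 25°, the contrast that chose the members, all 263 were upregulated, beside 8.61% of all tested contigs, and nothing is read from that count. Their log2 fold changes against 12° ran from 2.73 to 8.88, with quartiles of 3.50 and 4.56, a median of 3.93, and a median standard error of 0.25. Over all tested contigs the median was -0.09. When libraries were scaled by their totals, without TMM, the median of all contigs was -0.44 and that of the members 3.57, and all 263 were still called.

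**Figure D3:**
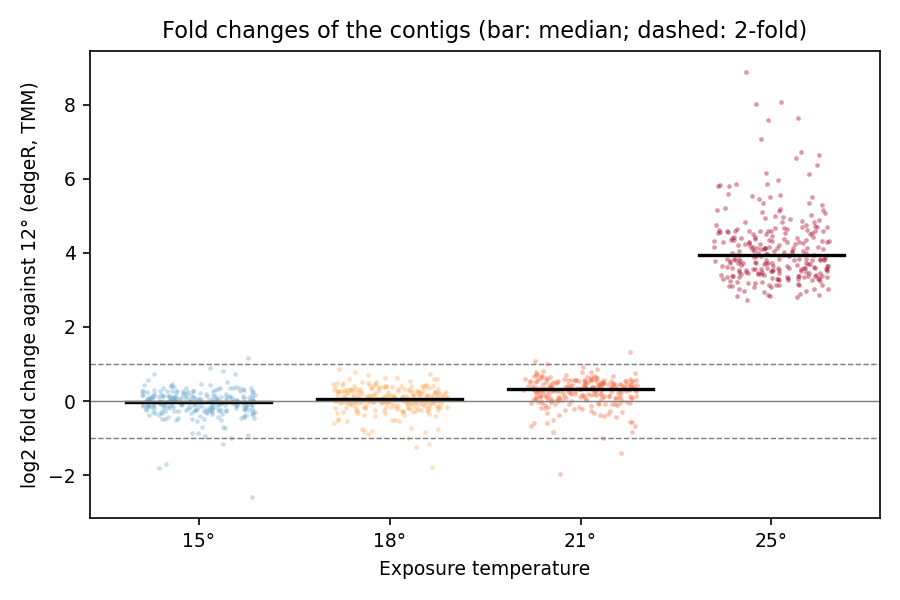
log2 fold change of the 263 contigs (points) against 12° at 15°, 18°, 21°, and 25°, from edgeR with TMM scaling, with the median as a bar and dashed lines at a fold change of 2 in each direction. The medians were -0.03, 0.06, 0.31, and 3.93, and every point at 25° lay at or above 2.73.

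The members did not stand at the same level in the 3 pools at 25°. Pool 3 had the lowest CPM of the 3 pools in 235 of the 263 members (89.4%), and pool 1 had the highest in 169 (64.3%). The median ratio of pool 3 to pool 1 was 0.682, and that of pool 2 to pool 1 was 0.914. Pool by pool, the members' median fold over the mean of the other 12 libraries was 13.1, 11.9, and 8.41, and the lowest fold of any member in any pool was 4.69. The rule used the mean and the lowest of the 3 pools but not which pool it was.

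Pool 3 was not the lowest in contigs at large. Among the 31429 contigs with the same minimum mean of 5 CPM at 25°, it was the lowest in 19.4% and the highest in 47.6%, and its median ratio to pool 1 was 1.09. The members were set beside 380 contigs that passed the same minimum and the same 4-fold gap at 25° but stood at 1.5 times the baseline or more at 18° or 21°. In these 380 contigs pool 3 was the lowest in 85.3%, with a median ratio to pool 1 of 0.752. With TMM-scaled libraries pool 3 was the lowest in 244 members, 88.9% of the 380 contigs, and 23.3% of the 31429. Pool 1 was the highest in 52.1% of the 380 contigs and 24.6% of the 31429. Which pool was the highest depended on the scaling. With TMM, pool 1 was the highest in 140 members (53.2%) and pool 2 in 117 (44.5%), and the median ratio of pool 2 to pool 1 was 0.972. Pool 2 was then the highest in 56.6% of the 380 contigs. The study counts the fish that were unresponsive or died only for the 25° group as a whole and not by pool. Their part in this difference was not tested. Contigs of a common transcript are not independent, and no test was made over contigs. Without pool 3 at 25°, the rule gave 376 contigs, of which 262 were among the 263.

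**Figure D4:**
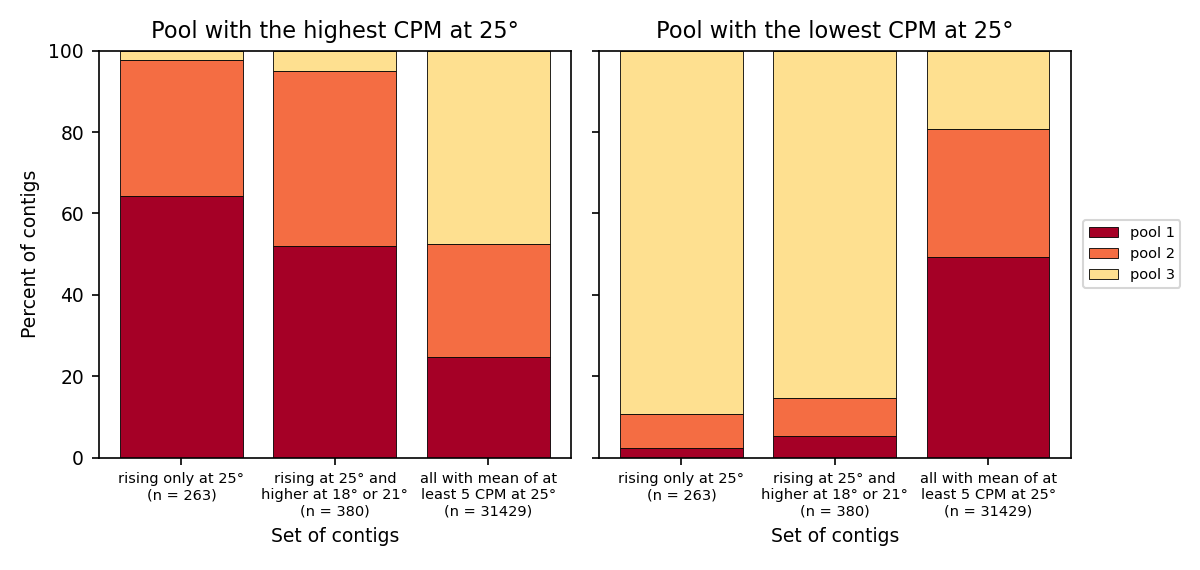
Percent of contigs for which each of the 3 pools at 25° had the highest (left) or the lowest (right) CPM, for the 263 contigs rising only at 25°, the 380 that were also higher at 18° or 21°, and the 31429 with a mean of at least 5 CPM at 25°. Pool 3 was the lowest in 89.4%, 85.3%, and 19.4% of the 3 sets.

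The spread between the pools at 25°, as the coefficient of variation of CPM, had a median of 21.7% over the members, with quartiles of 13.4% and 31.7%. It was 17.3% in the 380 contigs that were also higher earlier and 11.8% in the 31429 contigs of the same minimum level. Without pool 3 at 25° the members' median was 8.71%. In the control pools it was 19.4%. Of the 263 members, 117 varied less at 25° than at 12°, beside 14375 of the 31429 contigs and 65395 of the 155951 tested contigs. The members had a median of 289 reads over the 3 control pools and of 2849 over the 3 pools at 25°. The most even were contig_1791478, with 13.9, 13.9, and 13.4 CPM at 25°, and contig_38922, with 14.3, 15.0, and 14.5. The most uneven was contig_1449824 with 13.1, 2.63, and 2.97 CPM, in which pool 1 alone stood well above the others. contig_1394071 had 10.8, 4.10, and 2.44 CPM. The means of contig_1449824 and contig_1394071 at 25°, 6.22 and 5.78 CPM, thus rest mainly on pool 1, which lay apart from pools 2 and 3 on the component described above. At every temperature the lowest library of contig_1449824 was the one with the lowest score on that component. For contig_1394071 this held at 12° and 15° only. Such matches were not counted over the other members or all contigs, so nothing is read from them.

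Of the 11175 pairs among the 150 members with a mean of at least 1 CPM in the other 12 libraries, 7 pairs kept a ratio to each other whose log2 had an SD below 0.1 over all 15 libraries. These pairs joined 6 contigs, contig_57688 (4808 bp), contig_60904 (641 bp), contig_29602 (693 bp), contig_56780 (628 bp), contig_73782 (353 bp), and contig_73865 (293 bp). Not every pair among the 6 met the limit. The limit on the SD was chosen after the values were seen, and all pairs share the libraries and the rise at 25°. Counting error alone can exceed this limit in contigs with few reads, so 7 of 11175 is not a rate among pairs that could meet it. contig_60904, for instance, stood at 1.87 to 2.23 times contig_73865 in every library. It had 15.7, 17.2, and 16.0 CPM at 12°, 23.9, 26.9, and 23.9 CPM at 21°, and 300.2, 339, and 169 CPM at 25°. The 6 contigs had ratios of 12.7 to 14.1 to the other libraries, and pool 3 at 25° was the lowest in each. Only 79.9% of the reads of contig_56780 and 81.4% of those of contig_29602 aligned to a single contig, whereas the other 4 had 100% or nearly so. Contigs that share reads or a profile may represent parts of a common transcript or copies of a gene, which was not tested, and the 6 are therefore not counted as 6 genes.

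**Figure D5:**
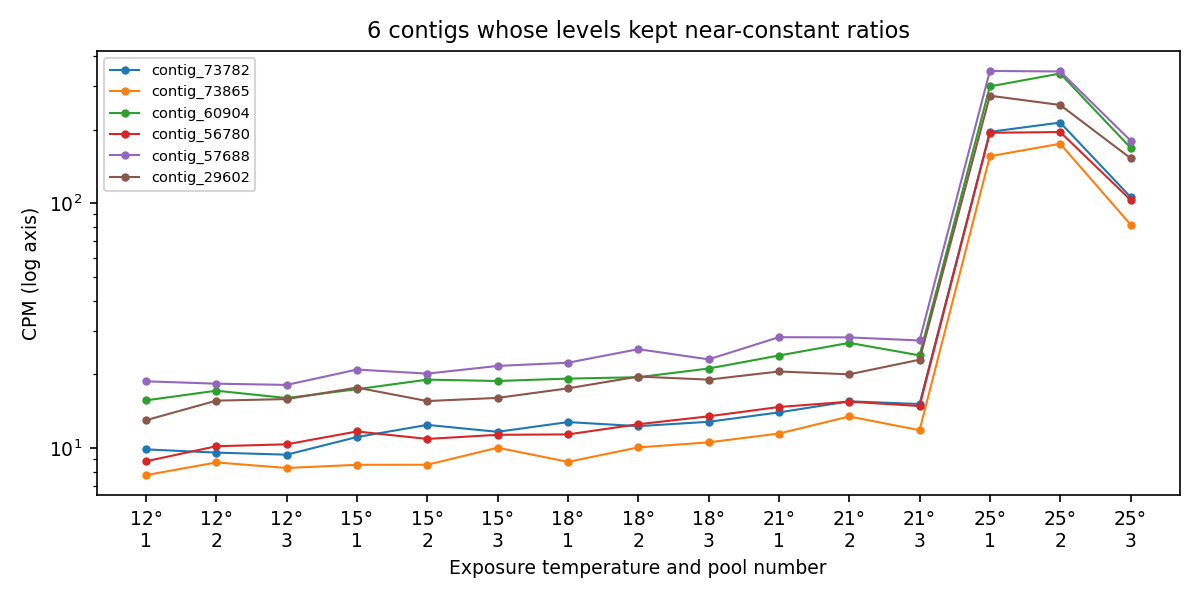
CPM (log axis) of the 6 contigs in each of the 15 libraries, grouped by temperature with the pool number below it, and lines that only join the points of a contig. The curves run nearly parallel, from 7.76 to 18.7 CPM in pool 1 at 12° to 81.9 to 180 CPM in pool 3 at 25°.

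By median length the members were longer than all contigs but shorter than the contigs with the same minimum mean at 25°. CPM is not corrected for length, so the minimum of 5 CPM favors long contigs, and the first difference follows in part from the rule. The length of the members had a median of 1021 bp, with quartiles of 518.5 and 1782 bp and a range of 153 to 6596 bp. The median was 582 bp over all 183740 contigs and 1268 bp over the 31429 contigs with the same minimum mean at 25°. It was 754 bp over the 380 contigs that did not meet the bound at 18° or 21°. Under 300 bp were 28 of the 263 members. The longest was contig_61988 with 6596 bp, which had 1.59, 1.40, and 1.66 CPM at 12° and 12.4, 9.29, and 11.0 CPM at 25°. The next was contig_33287 with 5533 bp. Its level was uneven within each temperature, at 1.80, 3.54, and 3.55 CPM at 12° and 74.8, 34.4, and 58.4 CPM at 25°. At 12°, 15°, 18°, and 25°, but not at 21°, its lowest library was the one with the lowest score on the component described above. Nothing is read from this match either, since it was not counted over other contigs. contig_58398, with 5523 bp, had 16.2, 19.0, and 17.1 CPM at 12° and 164, 142, and 98.3 CPM at 25°, and its lowest pool at 25° was 4.04 times the highest of the other 12 libraries.

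The table holds 2 sets of contig names, one with 132830 contigs and a second with 50910, and 1859 numbers occur in both. The second set made up 98 of the 263 members (37.3%), 27.7% of all contigs, and 58.3% of the contigs with the same minimum mean at 25°. Of the contigs named here, contig_74912 is the one whose number occurs in both sets. What distinguishes the sets is not given in the sources used here.

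In 173 of the members (65.8%) every read aligned to a single contig, against 74.2% of all contigs and 53.1% of those with the same minimum mean. In 16 members (6.08%) fewer than 99% did, against 8.81% and 12.8%. No member (0 of 263) had less than 50% such reads, beside 0.871% of all contigs and 2.07% of those with the same minimum mean. With shares this small, 0 of 263 is not read as a result about the members. The lowest shares were those of contig_56780, contig_29602, and contig_74912, the last with 92.0%. On uniquely aligned reads alone these 3 had ratios of 13.5, 12.6, and 14.7 to the other 12 libraries, and the rule applied to unique reads gave 268 contigs that included all 263. Paralogues assembled into a single contig are not separated by unique alignment, and the levels of these contigs may be sums over gene copies.

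The limits of the rule fall within a continuous distribution. At the minimum of 5 CPM, contig_80152 with 5.11 CPM and contig_40179 with 5.22 CPM were just inside, and contig_535998 with 4.99 CPM and contig_1222 with 4.97 CPM just outside. At the bound for 21°, contig_1391297 and contig_268462 with 1.499 and 1.492 times the baseline were inside, and contig_83393 and contig_1393595 with 1.505 and 1.507 times were outside. At the bound for 18°, contig_40179 and contig_1557807 with 1.41 times each were inside, and contig_1787158 and contig_1450007 with 1.59 and 1.66 times were outside. At the 4-fold gap, contig_477668 and contig_1141232 with 4.004 and 4.006 times were inside, and contig_75213 and contig_500676 with 3.987 and 3.973 times were outside. Some contigs just outside a bound had levels at 25° like those of the leading members. contig_83393 had 3.56, 2.85, and 3.17 CPM at 12° and 167, 169, and 111 CPM at 25°. contig_1787158 had 0.0729, 0.0928, and 0 CPM at 12° and 44.3, 27.8, and 10.7 CPM at 25°, and its mean at 18° exceeded the bound on 2 to 16 reads per library.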

How the data were processed

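Gill RNA was sequenced in 15 libraries. Per the methods of the study, the authors trimmed and quality-filtered the reads, assembled contigs de novo, and aligned the reads of each library to them in CLC Genome Workbench; no genome build was involved. The deposited counts are total and unique reads per contig, not normalized, and the deposited RPKM values are the authors' own. Of the 98 columns, 50 were not used: 16 hold the authors' test against 12°, and 34 repeat values, lengths, or group means. Groups and pool numbers were taken from the sample labels.

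CPM was computed from total reads and column sums. The libraries of each temperature and of 12° were fitted on their own with TMM scaling, glmQLFit, and glmQLFTest (edgeR 4.0.16, R 4.3.3) over 155951 contigs that reached 10 reads in 3 or more libraries. Calls required a fold change over 2 and a p-value, adjusted by the Benjamini-Hochberg method, under 0.01. Standard errors were obtained from the log2 fold change and the square root of its F statistic. They may be too small for contigs with a large change and few control reads. DESeq2 (version 1.42.0), other scalings, filters, thresholds, unique reads, a fit of all 15 libraries, a replicate block, and the omission of single libraries were alternatives. The fits were tested on simulated data. Python 3.11.15, numpy 2.4.6, and pandas 2.3.3 were used otherwise.

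The members and the rule for naming contigs were chosen with earlier results of these data known. Named were the members with the 10 largest ratios, the 6 highest CPM, and the 4 highest RPKM at 25°, the 4 longest, the 3 with the lowest unique share and the 3 with the highest CPM elsewhere, the 2 most and the 2 least variable at 25°, and the 2 contigs on either side of each limit. The remaining contigs named (contig_22585, contig_471750, contig_60904) were chosen after their values were seen. Per the labels each library pools the fish of its replicate, and per the methods the replicates were run on consecutive days, so p-values measure the spread between pools. Intervals on ratios of reads are exact, cover counting error only, and do not allow for the choice of contigs by that ratio.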

Additional observations from a re-analysis of the deposited data

How the results depend on the processing

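The rule set every 25° library more than 4 times above every other library and bounded 18° and 21°, so the calls of the members were largely fixed in advance and their constancy is no evidence of stability. All 263 members were called upregulated at 25°, and 0 were called at 15° and 18° in either direction, under every alternative run, except that the filter of at least 10 reads in every library left 240 of them in the test, all of which were called at 25°. At 21°, an adjusted p-value below 0.10 with the same 2-fold limit gave 1 downregulated member, contig_471750, and every other alternative gave 0.

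The number of contigs that meet the rule depended on its settings. Against 263, TMM-scaled libraries gave 407, of which 252 were among the 263, and DESeq2's size factors gave 401, of which 244 were. A minimum of 1 CPM at 25° gave 451 and a minimum of 10 CPM gave 171. A gap of 2 times gave 991 and a gap of 8 times 76. A bound at 18° and 21° of 25% above the baseline, in place of 50%, gave 145. Leaving out each library in turn gave 253 to 376, the highest without pool 3 at 25°. Without the 10 members with the highest CPM at 25°, the share of reads at 25° was 0.703%. With each pool at 25° left out in turn, the median coefficient of variation at 25° was 8.71% to 27.1%, the lowest without pool 3.

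The replicate block left 263 members called at 25° and 0 at 15°, 18°, and 21°. The study ran the replicates on consecutive days, but the labels do not tie a number to a day. After subtraction of the group means, libraries with a common number correlated at -0.644 to 0.686 between 12° and the other temperatures over the 12 pairs, positively in 5 and negatively in 7, and not every library correlated best with its own number. The number of reads limits the contigs with the largest ratios, some of which rest on 9 to 22 reads over the control pools.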
